A study of Mus musculus with 9 samples.

Results

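In mouse forelimb buds, 609 of the 11667 distal regions with H3K27 acetylation in the wild-type (WT) were also found in Shh-/- limb buds and were not found once Gli3 was missing as well. These regions were chosen by overlap of 3 peak lists: a WT peak entered when it shared at least 1 bp with a Shh-/- peak, shared none with a Shh-/-;Gli3-/- peak, and lay outside the promoter windows of all protein-coding transcripts, each reaching from 2 kb before the start to 1 kb after it. The whole WT list held 25096 peaks. The presence or absence in the mutant lists that chose the regions is thus a description and not a result.

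The study profiled H3K27ac by MicroChIP-seq, which immunoprecipitates chromatin from few cells, in E10.5 (embryonic day) forelimb buds of 33 to 34 somites. There were 9 libraries, with 2 immunoprecipitated replicates and 1 input for each of 3 genotypes. Each immunoprecipitation used a single pair of limb buds. The labels give a mixed strain background, while the methods state that both null alleles were kept on Swiss Webster. WT embryos were Shh+/+;Gli3+/+, Shh-/- embryos were homozygous for the Shh tm1amc null allele, and Shh-/-;Gli3-/- embryos, called double mutants here, also carried the Gli3 Xt-J null allele on both chromosomes. Both alleles were constitutive, so both genes were missing in every cell of the embryo and not in the limb bud alone. Groups were taken from the sample titles, because the labels name every sample wild type in their genotype field. Each genotype had 1 peak list with no value per replicate, so no spread between embryos and no p-value can be given. The methods give only a common minimum of reads per library and the lists give no counts, so the depth of each library is not known here, and a missing peak can mean a region below the detection limit of that list.

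Acetylation of lysine 27 on histone H3 marks active promoters and enhancers. In the limb bud, SHH is made by posterior cells of the zone of polarizing activity, and in cells it does not reach, GLI3 is cleaved to a transcriptional repressor. Without Shh, GLI3 repressor persists across the bud, and without both genes neither SHH signaling nor GLI3 repressor is present. The regions described here therefore had detected acetylation in the 2 genotypes that retain Gli3. Alx4, Irx3 and Irx5 encode homeodomain factors of anterior or proximal limb mesenchyme, and GLI proteins bind DNA through a motif with the consensus GACCACCCA.

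The 5 regions of the highest WT log2 fold over input outside exons are shown first, as examples of the strongest of the set in WT. The Lpin2 region, the second strongest, lay in an exon and is left out. Each line gives the 200 bases centred on the largest peak-caller statistic, read from the plus strand of the mm10 assembly and named by the gene with the nearest protein-coding start. The lists do not say whether positions count from 0 or 1, so each could be displaced by 1 base.
Wnt5a, chr14:28542425-28542624: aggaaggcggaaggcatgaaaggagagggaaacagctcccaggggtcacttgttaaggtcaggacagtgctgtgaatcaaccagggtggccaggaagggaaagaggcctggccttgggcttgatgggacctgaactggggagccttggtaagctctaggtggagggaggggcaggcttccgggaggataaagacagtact
Rpn1, chr6:88114325-88114524: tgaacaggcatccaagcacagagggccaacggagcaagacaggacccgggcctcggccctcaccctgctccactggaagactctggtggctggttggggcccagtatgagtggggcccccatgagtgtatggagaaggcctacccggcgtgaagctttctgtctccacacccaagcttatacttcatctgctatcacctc
Sipa1l3, chr7:29453175-29453374: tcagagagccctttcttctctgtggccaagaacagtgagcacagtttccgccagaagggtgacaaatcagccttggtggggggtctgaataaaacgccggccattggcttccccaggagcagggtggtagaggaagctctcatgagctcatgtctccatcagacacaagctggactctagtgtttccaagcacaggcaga
Dkk2, chr3:132144575-132144774: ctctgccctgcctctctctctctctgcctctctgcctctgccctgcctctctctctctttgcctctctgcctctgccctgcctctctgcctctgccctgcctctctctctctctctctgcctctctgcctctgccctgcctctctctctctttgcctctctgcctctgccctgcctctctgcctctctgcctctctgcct
Ephb2, chr4:136783675-136783874: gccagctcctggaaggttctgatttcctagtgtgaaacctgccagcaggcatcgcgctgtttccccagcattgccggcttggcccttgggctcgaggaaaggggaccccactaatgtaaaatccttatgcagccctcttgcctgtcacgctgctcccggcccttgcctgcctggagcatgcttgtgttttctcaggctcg
The Wnt5a and Rpn1 regions were intergenic and the other 3 lay in introns of the gene named. The Dkk2 region consisted entirely of repeat-masked sequence (100% of the peak), visible as a CT-rich simple repeat. The 5 peaks had GC contents from 52.8% at Sipa1l3 to 63.3% at Dkk2.

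Next are regions closest to Alx4 and Irx3, genes of anterior limb mesenchyme, that lie outside exons. The Alx4 region lay in an intron of that gene, and the Irx3 region lay in an intron of Fto, 209 kb from the Irx3 start.
Alx4, chr2:93647000-93647149: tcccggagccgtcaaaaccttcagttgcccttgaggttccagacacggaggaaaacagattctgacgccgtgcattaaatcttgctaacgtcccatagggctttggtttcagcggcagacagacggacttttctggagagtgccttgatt
Irx3, chr8:91592600-91592699: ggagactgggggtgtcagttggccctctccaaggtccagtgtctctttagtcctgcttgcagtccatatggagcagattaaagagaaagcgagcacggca
The Irx3 window had a GC content of 54.0% and the Alx4 window 51.3%. Neither window held the GLI consensus.

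Of all 609 regions, 1 held the GLI consensus GACCACCCA, or TGGGTGGTC on the other strand, anywhere in its peak. It lay in an intron of Pdlim4, a gene for a cytoskeletal adaptor, and outside the 200 bases around the largest statistic. The 60 bases around the match are printed with the match in capitals, a stretch chosen after the values were seen.
Pdlim4, chr11:54057728-54057787: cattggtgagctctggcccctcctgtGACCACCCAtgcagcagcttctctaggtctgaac
In the 200-base windows of the 609 regions the consensus was found 0 times, which allows a share of up to 0.493% (3 counts of 609). The share was 0.178% in WT distal peaks found in both mutants, 0.323% in those found in the double mutant alone and 0.303% in those found in neither. These shares lie below that limit, so a difference could not be detected at this number of regions. The shorter core ACCACCC or GGGTGGT, which is contained in the consensus, was in 4.27% of the windows of the 609 regions (95% CI 2.93 to 6.18) and in 3.30%, 3.28% and 3.76% of the other 3 classes in the same order.

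The 609 regions were 5.22% of WT distal peaks. Among the other WT distal peaks, 3941 (33.8%) were found in both mutants, 2167 (18.6%) in the double mutant and not in Shh-/-, and 4950 (42.4%) in neither. Of the 4550 WT distal peaks that had a Shh-/- peak, 13.4% had no double mutant peak. Among the 13429 WT promoter peaks, 680 (5.06%, 95% CI 4.71 to 5.45) were in the Shh-/- list and absent from the double mutant list. On the autosomes and X the share ran from 2.26% on X (5 of 221) to 6.78% on chromosome 17, Y had 0 of 6, and chromosome 1 had 3.42% (95% CI 2.34 to 4.96).

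These were narrow and weak peaks of the WT list. Their median width was 150 bp (interquartile range 100 to 250 bp), against 300 bp for WT distal peaks found in both mutants, 200 bp for those in the double mutant alone and 150 bp for those in neither. Only 6 of the 609 were 500 bp or wider (0.985%), while 27% of those in both mutants were. Their median WT log2 fold over input was 2.42 and the highest was 3.73. A false discovery rate (FDR, the deposited q-value) below 0.05 in the WT list was reached by 214 of 609 (35.1%, 95% CI 31.5 to 39.0), by 66.8% of WT distal peaks in both mutants, by 42.7% of those in the double mutant alone and by 29.2% of those in neither. The class thus sat between the peaks found in neither mutant and those in the double mutant alone.

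**Figure D1:**
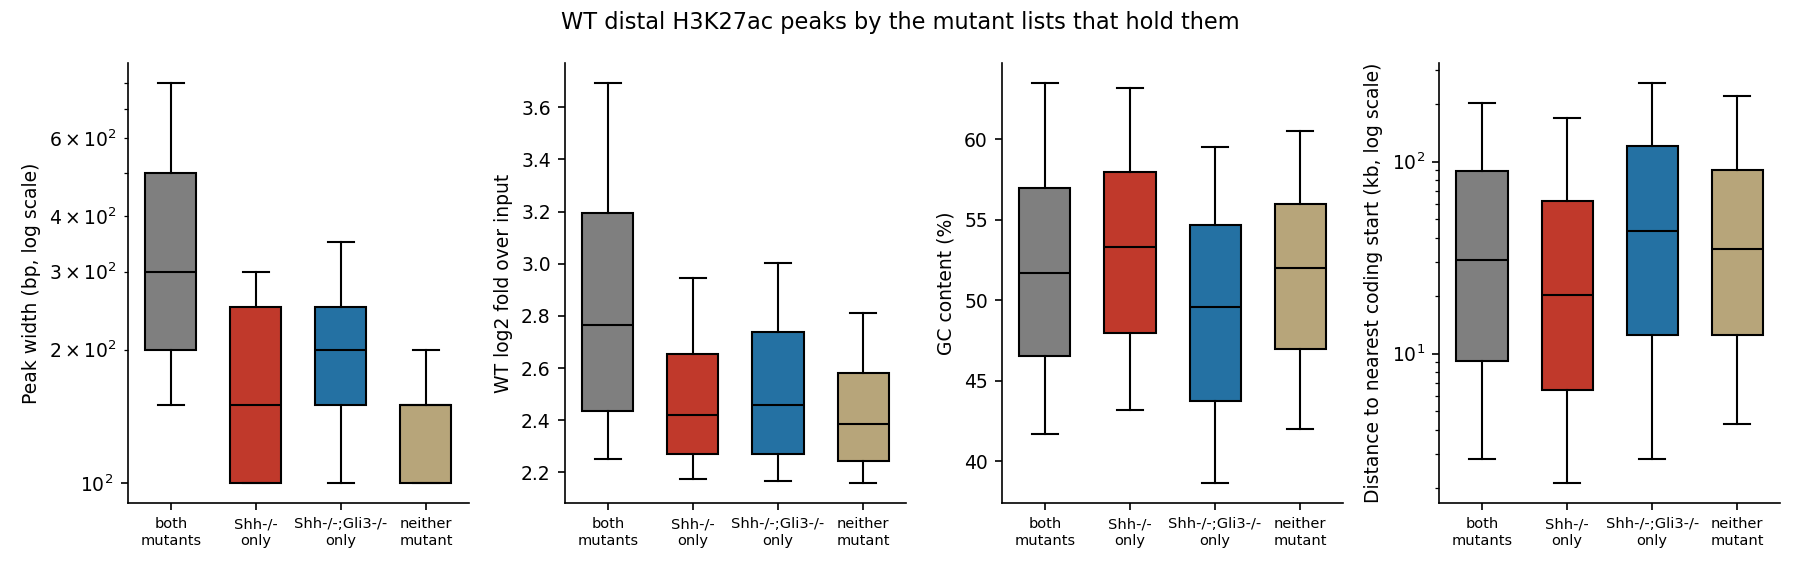
Width (bp), WT log2 fold over input, GC content (%) and distance to the nearest protein-coding start (kb) of WT distal peaks by class, with boxes from the lower to the upper quartile, a line at the median and whiskers from the 10th to the 90th percentile. The Shh-/- only class has a median width of 150 bp, the highest median GC content (53.3%) and the shortest median distance (20.2 kb).

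The share of these regions fell only among the strongest WT peaks. Across deciles of the WT log2 fold, it lay between 5.40% and 6.94% in the 7 lower deciles, then was 4.37%, 3.86% and 2.31% (95% CI 1.59 to 3.35) in the upper 3. In the uppermost decile 82.3% of WT distal peaks were found in both mutants. The double-mutant-only share also had its lowest value, 9.60%, in that decile.

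**Figure D2:**
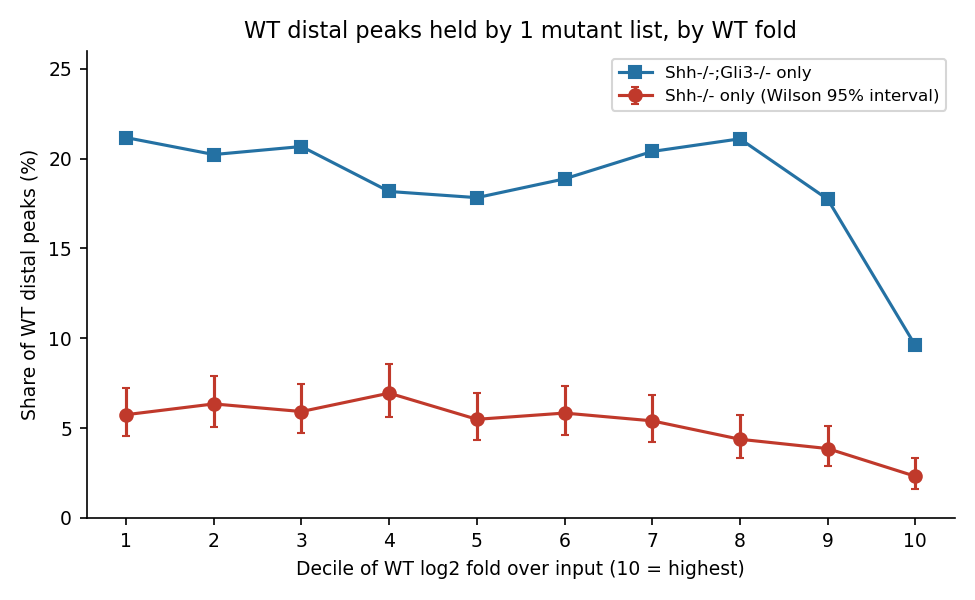
Share of WT distal peaks (%) found in Shh-/- only (red, bars are Wilson 95% intervals) and in the double mutant only (blue), by decile of WT log2 fold over input. Both shares are lowest in decile 10, at 2.31% and 9.60%.

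The 10 regions with the highest WT log2 fold lay nearest to Wnt5a, Lpin2, Rpn1, Sipa1l3, Dkk2, Ephb2, Ywhaz, Wdr86, Pdlim4 and Epha7, with WT log2 folds from 3.73 to 3.47 and a WT FDR of 0.00126 each. Wnt5a encodes a WNT ligand of distal limb outgrowth, Dkk2 a secreted WNT modulator, and Ephb2 and Epha7 encode ephrin receptors. The Wnt5a region, 300 bp wide at chr14:28542350-28542649, was 30.9 kb from the nearest Wnt5a start and 30.6 kb from the nearest double mutant peak. The Ephb2 region was 400 bp wide and lay wholly inside a 550 bp Shh-/- peak of log2 fold 3.62 over the Shh-/- input, with the nearest double mutant peak 7.10 kb away. The Ywhaz and Pdlim4 regions abutted a double mutant peak with no base between them, and at Ywhaz that peak was 2800 bp wide. The 10 strongest regions thus include both isolated sites and flanks of double mutant peaks. The 5 widest were nearest to Tenm2 (600 bp), Adamts2, Acer2 and Tpgs2 (550 bp each) and Wdr86 (500 bp), and these 5 were intronic. The Mef2c region, in a noncoding gene, was also 500 bp wide and came after Wdr86 by its lower WT fold. The Tpgs2 region lay in an intron of Fhod3.

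In the Shh-/- list the same places were covered by 602 distinct peaks. These Shh-/- peaks had a median width of 250 bp (interquartile range 150 to 400 bp), and 393 of the 609 regions (64.5%) were wider there than in WT. The share that was wider was not computed for the other classes. A Shh-/- FDR below 0.05 was reached by 445 of 609 (73.1%). Both values were those of the Shh-/- list as a whole, with a median width of 250 bp and 72.4% of peaks below that FDR. Both lists gave an FDR below 0.05 for 139 (22.8%). The overlap was 50 bp, the smallest step of the lists, for 146 regions (24.0%), and 265 (43.5%) lay wholly inside Shh-/- peaks. Folds of separate lists are relative to separate inputs and are not compared.

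Most of the regions were close to a double mutant peak although none overlapped one. Of the 609, 102 (16.7%) abutted such a peak, 281 (46.1%) had one within 200 bp and 404 (66.3%, 95% CI 62.5 to 70.0) had one within 1 kb. Of WT distal peaks found in neither mutant, 27.7% (95% CI 26.5 to 29.0) had a double mutant peak within 1 kb. The mirror class gave a similar value, as of WT distal peaks found in the double mutant alone, 62.6% had a Shh-/- peak within 1 kb. The 404 nearby double mutant peaks had a median width of 250 bp and a median gap of 100 bp. At 179 of the 609 regions (29.4%), the overlapping Shh-/- peak itself overlapped a double mutant peak. A WT peak found in both mutants lay within 1 kb of 181 regions (29.7%), as against 35% for the double-mutant-only class and 8.06% for the class in neither. Whether the lists' boundaries in steps of 50 bp set the absence of these regions was not tested.

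**Figure D3:**
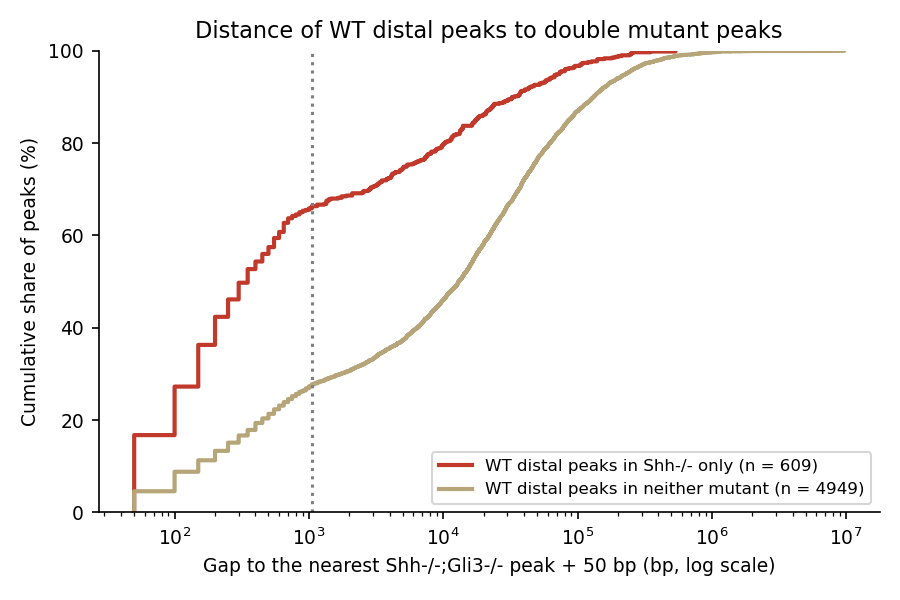
Cumulative share (%) of WT distal peaks against the gap in bp to the nearest double mutant peak plus 50 bp on a log axis, for peaks found in Shh-/- only and in neither mutant. At the dotted line (a gap of 1 kb) the Shh-/- only class stands at 66.3% and the other at 27.7%.

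At the limit of the rule, the strongest regions just inside, with a gap of 0 bp to a double mutant peak, were nearest to Ywhaz, Pdlim4, Slc4a3, Gpc1 and Rnf213 (WT log2 fold 3.57 to 3.04). The strongest WT distal peaks just outside, which shared 50 bp with a double mutant peak and were found in Shh-/- too, were nearest to Pgpep1l, Fam83a, Irf2bpl, Pon1 and Krt78 (3.44 to 3.16). There were 159 WT distal peaks with this smallest overlap. Both sets of 5 were taken by the highest WT fold at the limit, so their similar ranges follow from that choice.

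An FDR below 0.05 in both lists and no double mutant peak within 1 kb was met by 49 regions, a subset chosen after the values were seen. The strongest in WT were nearest to Rpn1, Sipa1l3, Dkk2, Ephb2, Nuak1 and Mef2c (WT log2 fold 3.70 to 3.31). The Mef2c region was a 500 bp peak of 75.8% GC in a noncoding gene, 155 kb from the start of Mef2c, a MADS-box factor of muscle and vessels, and 212 kb from the nearest double mutant peak. The subset also had a Dlk1 region (WT log2 fold 2.90, double mutant peak 4.10 kb away), a Smad6 region (2.64, 13.9 kb away) and regions at Lrp4 (2.78, 3.30 kb) and Slit3 (2.72, 13.3 kb). Smad6 encodes an inhibitor of BMP signaling and Lrp4 a receptor that moderates WNT signaling in the apical ectodermal ridge. Med13l had 2 regions in the subset, at 139 kb and 386 kb from its start.

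The sequence of the 609 regions was comparatively rich in GC. The median GC content was 53.3% (95% interval of the median 52.7 to 54.0), against 51.7% (51.4 to 52.0) in WT distal peaks of both mutants, 49.6% (49 to 50) in the double-mutant-only class and 52.0% (51.5 to 52.0) in the class of neither. Among peaks farther than 10 kb from a start, the medians were 52.8% for the 405 such regions of the set and 50.9%, 49% and 51.8% for the other classes in the same order. Among peaks with a start within 10 kb, they were 54.7%, 54%, 51.5% and 52%. Among peaks of 150 bp or less, they were 53.0%, 50.7%, 49.3% and 52.0%. The set had the highest and the double-mutant-only class the lowest median in each of these subsets, while the order of the other two classes changed with distance. Within 10 kb the 95% interval of the set (53.6 to 56) overlapped that of both mutants (53.5 to 54.5). Beyond 10 kb the interval of the set (52 to 53.4) touched that of neither (51.3 to 52). At 150 bp or less the set (52.7 to 54) and neither (51.3 to 52) were apart. Repeat-masked bases made up over 50% of the peak at 43 of the 609 (7.06%), against 3.45%, 7.84% and 17.3% in the classes of both mutants, double mutant alone and neither.

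Short sequence motifs, 11 in all, were searched on both strands in 200-base windows. The homeodomain core TAATTA was in 1.64% of the 609 windows (95% CI 0.894 to 3.0), as against 3.40%, 4.80% (3.98 to 5.78) and 2.83% in the classes of both mutants, double mutant alone and neither. It is an AT-only motif, and the class of lowest GC content held it most often. Whether GC content set these shares was not tested. The ETS motif CCGGAAG was in 3.28% (2.14 to 5.02), against 2.26%, 1.15% (0.783 to 1.70) and 1.25%. The GC-box GGGCGG was in 64 of the 609 windows (95% CI 8.32 to 13.2%), against 13.3%, 7.43% and 5.54%. The TEAD motif GGAATG was in 13.5%, against 11.2%, 12.4% and 10.2%. For CAGATG (E-box, 16.6%), TGANTCA (AP-1, 5.25%), CTTTGAT (TCF-LEF, 1.64%), TGATTNAT (HOX-PBX, 1.31%) and TGTTTAC (forkhead, 1.48%), the shares in the 3 other classes ran from 13.7% to 16.5%, 4.01% to 5.23%, 2.72% to 3.09%, 1.65% to 2.54% and 2.63% to 2.92%. A match is a run of letters and not a binding site, and the motifs overlap in part, as the core does with the consensus.

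Members of the set lay closer to genes than other WT distal peaks. The median distance to the nearest protein-coding start was 20.2 kb (95% interval 16.8 to 23.8 kb), against 30.6 kb in the class of both mutants, 43.5 kb in the double-mutant-only class and 35 kb in the class of neither. A start within 10 kb was present for 204 of 609 (33.5%, 95% CI 29.9 to 37.3), as against 26.7%, 22.2% and 21.1%. Among peaks of 150 bp or less these shares were 31.1%, 24.3%, 21.2% and 20.6%. Introns held 273 of the regions (44.8%), intergenic sequence 218 (35.8%), noncoding genes 66 (10.8%) and exons of protein-coding genes 52 (8.54%), of which 36 touched coding sequence. In the other classes exons held 5.94%, 4.61% and 7.66%.

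The promoters of the nearest genes were mostly acetylated in all genotypes. The nearest gene had a promoter peak in WT for 68.3% of the regions, in Shh-/- for 73.9% and in the double mutant for 70.4% (95% CI 66.7 to 73.9). In the classes of both mutants, double mutant alone and neither, the WT shares were 69.6%, 71.1% and 63.3% and the double mutant shares 74%, 74.4% and 65.6%, so the set lay within their range. A promoter peak in WT and Shh-/- and none in the double mutant was found for 12 regions (1.97%, 95% CI 1.13 to 3.41), against 1.24%, 0.969% and 1.15% of the other classes. These 12, named after their values were seen, lay nearest to Smyd3 (2 regions), Trp53i13, Samd4, Trak1, Llgl2, Tmem38b, Ddit4, Rhof, Gm11627, Slc14a2 and Tle2. Tle2 encodes a Groucho corepressor and Ddit4 an inhibitor of mTOR signaling.

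The genes nearest to the regions also carried mutant peaks that the rule did not use, namely distal mutant peaks that touched no WT peak. Near the 527 nearest genes there were 2224 such peaks in Shh-/- and 2432 in the double mutant, a ratio of 1.09. The ratio was 1.26 near genes with a WT distal peak found in both mutants, 1.44 near genes of the double-mutant-only class, 1.40 near genes of the class of neither and 1.35 over all genes. The genes of the 609 regions thus had the lowest ratio of the 4 classes, although the double mutant list gave the larger number near them too. More Shh-/- than double mutant peaks of this kind were near 191 of the 527 genes and fewer near 206. A gene can belong to several classes, and the lists differ in length, with 16487 distal peaks in Shh-/- and 21085 in the double mutant.

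Of the 527 nearest genes, 464 had a single region, 51 had 2, 7 had 3 and 5 had 4 or more, which were Msx2 and Med13l (5 each) and Lmx1b, Pim1 and Zfp36l1 (4 each). Another region of the set lay within 100 kb of 179 of the 609 (29.4%). No such share was computed for other WT distal peaks, so this is not a measure of clustering. The longest run was 7 regions in 261.9 kb of chromosome 2 around Prrx2, a homeobox gene of limb mesenchyme, Ptges, Cstad and 1700001O22Rik, among 43 WT distal peaks.

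Msx2 encodes a homeodomain factor induced by BMP signaling in anterior mesenchyme and in the ridge. Its 5 regions, named because at least 4 regions shared the gene, fell within 12.6 kb, where they were 5 of 6 WT distal peaks. That span was drawn from the first to the last of the 5, so their share of it follows from that choice. Of all 10 WT distal peaks nearest to Msx2, 5 were in the set, 3 were found in both mutants and 2 in neither. The WT log2 folds were 2.94, 2.64, 2.52, 2.45 and 2.37, and the widths ran from 100 to 300 bp. The overlapping Shh-/- peaks were 300 to 1600 bp wide. The gaps to double mutant peaks were 0.350 to 1.35 kb. Over all distal peaks nearest to Msx2, the Shh-/- list covered 6.05 kb in 12 peaks, the double mutant list 2.2 kb in 10 and the WT list 2.35 kb in 10. The Shh-/- cover includes the peaks that the rule required at the 5 regions. Distal peaks that touched no WT peak, which the rule did not use, numbered 6 in Shh-/- and 7 in the double mutant.

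Med13l, which encodes a Mediator subunit, had 8 WT distal peaks, of which 5 were in the set and 3 were found in both mutants. The Shh-/- list had 32 distal peaks nearest to Med13l, the double mutant list 16. These counts include places where the rule required a Shh-/- peak and barred a double mutant peak. Those that touched no WT peak, which the rule did not use, numbered 25 in Shh-/- and 13 in the double mutant. Lmx1b, the determinant of dorsal limb mesenchyme, differed: 30 of its 40 WT distal peaks were found in both mutants and 4 were in the set. The double mutant list covered 27 kb in 31 distal peaks there and the Shh-/- list 17.1 kb in 35. A Lmx1b region abutted a double mutant peak of 3950 bp and another lay 50 bp from the other end of the same peak. The other 2 Lmx1b regions lay in an intron of Mvb12b, 113 and 114 kb from the Lmx1b start.

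**Figure D4:**
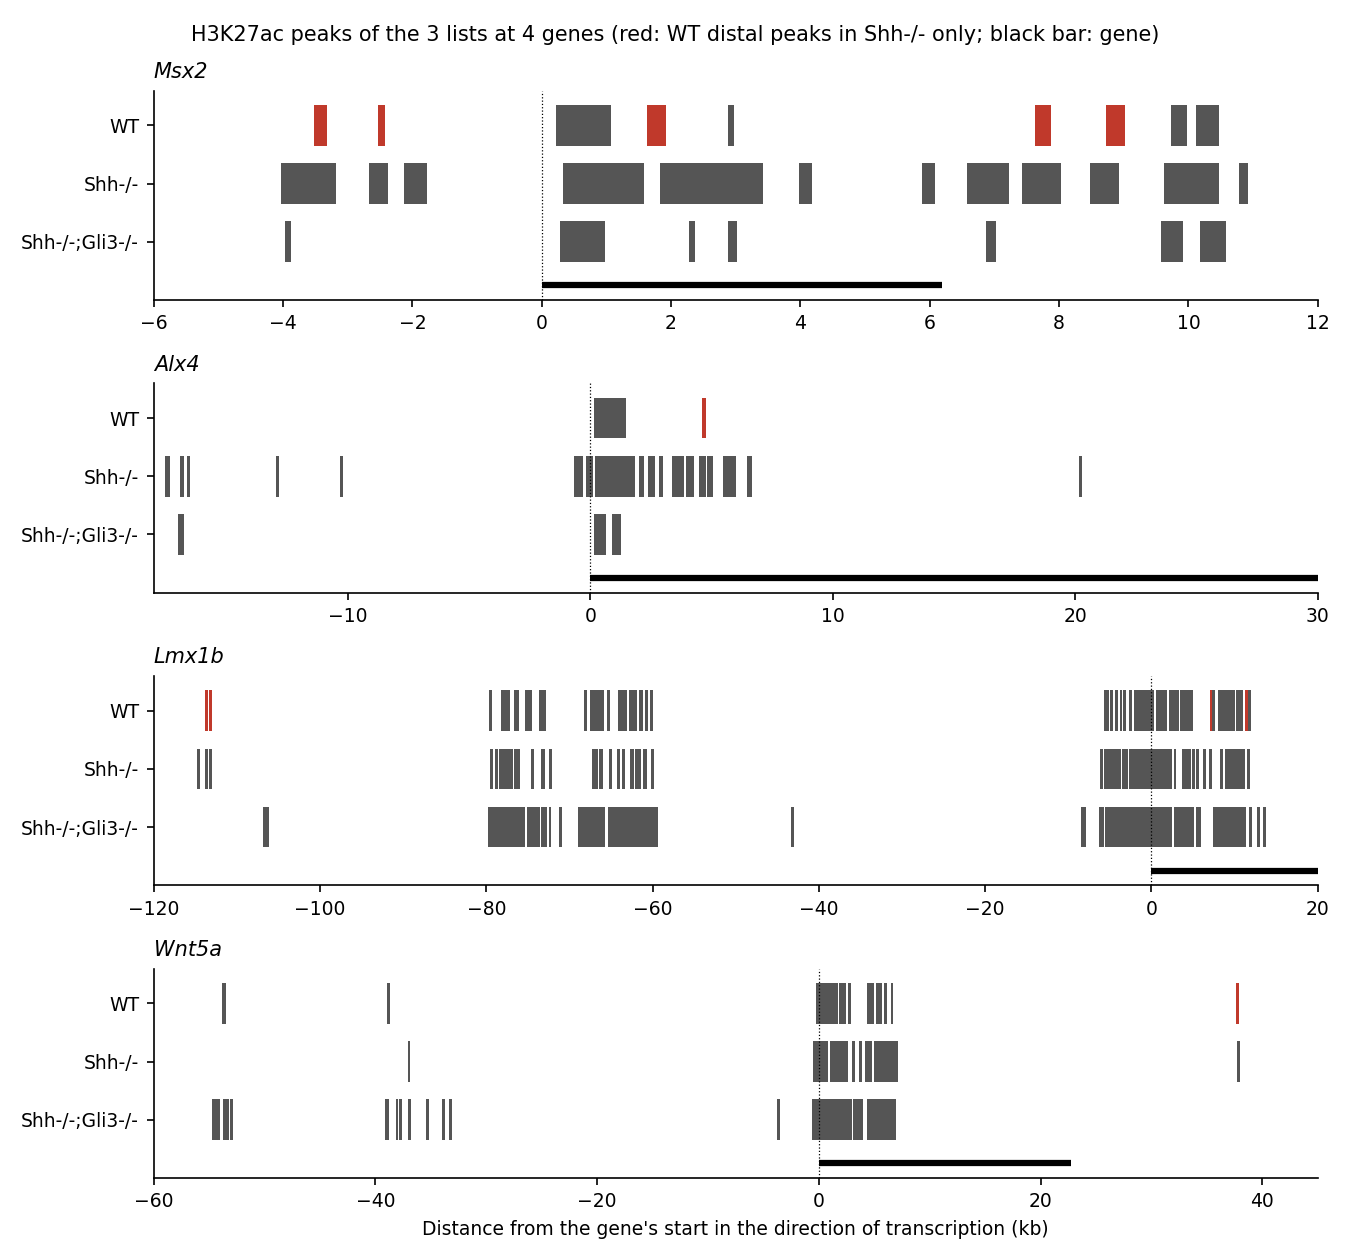
Peaks of the WT, Shh-/- and double mutant lists along the distance (kb) from the gene's start in the direction of transcription at Msx2, Alx4, Lmx1b and Wnt5a, with regions of the set in red and the gene as a black bar; the narrowest peaks are widened to stay visible. At Alx4 the Shh-/- list has 22 distal peaks against 2 in WT and 3 in the double mutant, and at Lmx1b the double mutant list covers the most sequence.

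Lists of limb genes were then read against the 5.22% of all WT distal peaks. Of 203 listed genes in 10 lists, 47 regions lay nearest to one, out of 649 such WT distal peaks (7.24%). The anterior list had 5 of 38 (13.2%, 95% CI 5.75 to 27.3) and the ectoderm and ridge list 10 of 58 (17.2%, 9.64 to 28.9), 9 of them at Msx2 and Lmx1b. Lmx1b, the gene of dorsal mesenchyme, supplied 40 of the 58 WT distal peaks of the ectoderm and ridge list and 4 of its 10 regions. Msx2 is expressed in mesenchyme as well as in the ridge. Without those 2 genes the ectoderm and ridge list had 1 of 8 (12.5%, 2.24 to 47.1). The anterior list contains Gli3 itself, the gene mutated in the double mutant. Gli3 supplied 15 of the 38 WT distal peaks of that list and 0 of its regions. The BMP list had 6 of 62 (9.68%), cartilage 4 of 43 (9.30%), limb mesenchyme and FGF 12 of 181 (6.63%), proximal and retinoic acid genes 4 of 82 (4.88%) and the posterior and hedgehog list 4 of 134 (2.99%, 1.17 to 7.42). Markers of other cell types gave 1 of 39 for blood and endothelium (Erg), 1 of 3 for neural crest (Mitf) and 0 of 9 for muscle precursors, which allows up to 33.3%. With genes assigned by a start within 100 kb, cartilage had 5 of 25 (20%, 8.86 to 39.1), neural crest 1 of 7 (14.3%) and blood and endothelium 3 of 69 (4.35%). The anterior list then had 4 of 30 (13.3%, 5.31 to 29.7) and ectoderm and ridge 9 of 71 (12.7%, 6.81 to 22.4). BMP had 7 of 69 (10.1%), limb mesenchyme and FGF 16 of 192 (8.33%) and proximal genes 6 of 119 (5.04%). The posterior and hedgehog list had 7 of 164 (4.27%) and muscle precursors 0 of 4. The intervals treat neighbouring peaks as independent, which peaks at the same gene are not.

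**Figure D5:**
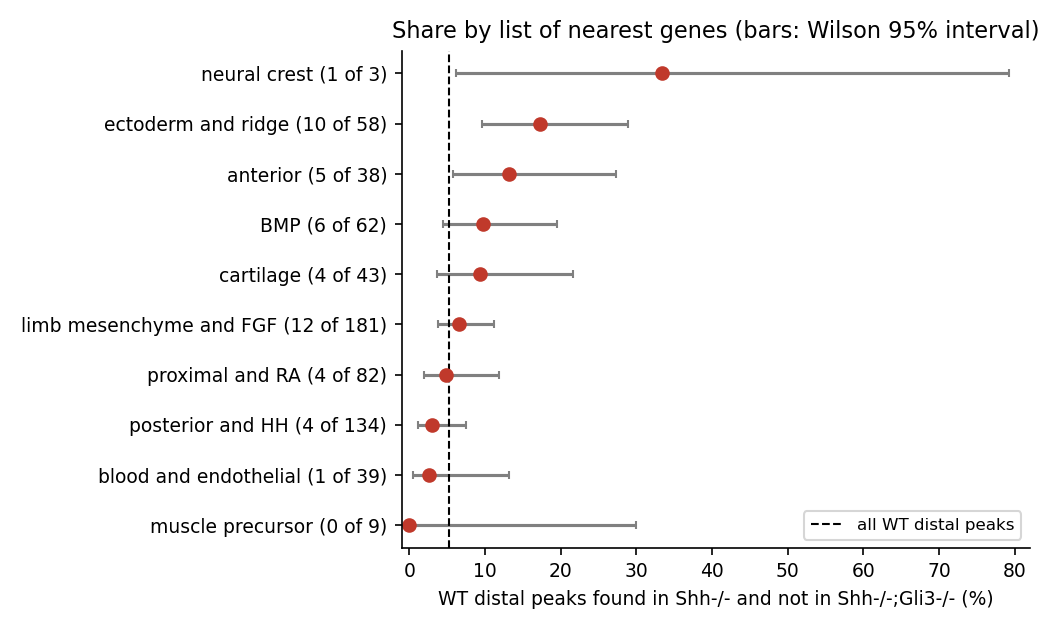
Share (%) of WT distal peaks nearest to genes of each list that were found in Shh-/- and not in the double mutant, with Wilson 95% intervals, counts beside each name and a dashed line at 5.22%. The anterior and the ectoderm and ridge lists have intervals above the line at 13.2% and 17.2%, as does neural crest with 1 of 3, and the other intervals include it. Of the 58 ectoderm and ridge peaks, 40 are nearest to Lmx1b, a gene of dorsal mesenchyme.

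The anterior regions described here were 2 at Irx3 and 1 each at Irx5 and Alx4. These were weak peaks, with WT log2 folds of 2.27 at Irx5, 2.26 at Alx4 and 2.18 at both Irx3 regions, and a WT FDR from 0.210 to 0.297. None of the list's 5 regions had an FDR below 0.05 in both lists, and with that threshold the list had 0 of 17. With no start allowed within 5 kb it had 1 of 25 (4%). Over all WT distal peaks the shares at these 2 settings were 2.66% (139 of 5218) and 4.80% (479 of 9975). Counts this small cannot tell the list apart from all WT distal peaks.

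At Alx4 the 150 bp region lay 4.61 kb into the gene, inside a Shh-/- peak of 300 bp with an FDR of 0 as deposited. The nearest double mutant peak was 3.35 kb away. Shh-/- buds had 22 distal peaks nearest to Alx4, covering 5.15 kb, against 2 in WT and 3 in the double mutant, which covered 0.400 and 0.750 kb. Of the 22, 21 touched no WT peak. In the promoter windows of Alx4 peaks covered 1489 bp in Shh-/-, 839 bp in WT and 589 bp in the double mutant. The Alx4 locus thus had far more acetylated sequence listed in Shh-/- than in either other genotype. Irx5 had 10 distal peaks in Shh-/-, 4 in the double mutant and 3 in WT, and Irx3 had 14, 14 and 8. Those that touched no WT peak numbered 8 in Shh-/- and 3 in the double mutant at Irx5, and 8 in each at Irx3. The anterior gene Epha3 differed in direction, with 4 distal peaks in Shh-/- and 19 in the double mutant. Over the list there were 98 in Shh-/-, 82 in the double mutant and 38 in WT. These totals include Gli3, the gene mutated in the double mutant, with 26, 19 and 15 in the same order. Without Alx4 the list had 76 in Shh-/- and 79 in the double mutant, so the larger number in Shh-/- rested on that gene.

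The posterior and hedgehog regions were 2 at Boc, which encodes a SHH coreceptor, and 1 each at Dlk1 and Mycn. The Boc regions were 150 and 100 bp wide, lay inside Shh-/- peaks of 1750 bp each, and had double mutant peaks 150 and 100 bp away. Of the list's 134 WT distal peaks, 49 (36.6%) were found in the double mutant alone. Distal peaks nearest to the list's genes numbered 138 in Shh-/- and 247 in the double mutant.

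The proximal regions described here were 1 each at Meis1 and Hoxa10, both genes for homeodomain factors. The Meis1 region had a WT log2 fold of 2.27 and lay 37.8 kb from the start. The Hoxa10 region abutted a double mutant peak of 1850 bp. Outside these 3 lists, limb genes with a region included Fgf10, Fgfr1, Spry2, Etv4, Tbx5, Twist1, Prrx2, Lhx2, Msx1, Bmp7, Smad6, Smad7, Id2, Sox6, Col2a1 and Matn1, which were picked after their values were seen. Spry2 had the highest WT log2 fold of the listed genes (3.25). The Fgf10 region lay in repeat-masked sequence over its full 100 bp.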

How the data were processed

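H3K27ac was measured by MicroChIP-seq in 9 libraries of E10.5 forelimb buds, grouped by their titles. Per the submitters' processing notes and the study's methods, the authors aligned reads with Bowtie2 2.2.5 to mm10 and called peaks with CisGenome 2.1.0 using 2 biological replicates, while the labels place a list under replicate 1 of its genotype. The deposited lists, 1 per genotype, hold the largest log2 fold over input, the largest peak-caller score, the −log10 of the lowest p-value under a Poisson model and a false discovery rate (q-value), which extends to 0.350 in the WT list. Sequences were centred on the position of the largest score. The strongest regions were those of the highest WT log2 fold, and the deposited rank served for the setting with equal numbers of peaks. Widths come in steps of 50 bp. The methods give a minimum of reads per library, and the lists give no counts.

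Overlaps of at least 1 bp, distances and classes were computed in Python 3.11.15 (numpy 2.4.6, pandas 2.3.3, scipy 1.17.1) with GENCODE M21 basic, and checked on simulated lists. Starts are those of protein-coding transcripts, a noncoding gene is any other annotated gene, and exons take precedence over introns. Sequence, GC content and repeat masking came from the RefSeq GRCm38.p6 assembly, the same build. Peaks off assembled chromosomes were left out of feature values, so 3 peaks of the class found in both mutants and 1 of the class in neither have none. Shares carry Wilson 95% intervals and medians order-statistic 95% intervals, both for counting error only. No test was run, because peaks of 1 list are not replicates.

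The members and gene lists were chosen with earlier results of these data known. Named were the 10 members of highest WT fold, the 5 widest, all members nearest to anterior, posterior or proximal list genes, genes nearest to 4 or more members, and the 5 peaks on each side of the overlap limit. Sequences in exons or on chromosome 18 were not printed, and some items that these rules select are not reported here. There were 11 alternative settings and 2 added after the data were seen, plus the ectoderm and ridge list without Msx2 and Lmx1b and the anterior list without Alx4, also added then.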

Additional observations from a re-analysis of the deposited data

How the results depend on the processing

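The number of regions, 609, was within 1.5 times under 6 alternatives and moved under 6. It was 1206 with reciprocal 50% overlap, 178 with an FDR below 0.05 in all lists, 139 with that FDR in the WT and Shh-/- lists, 114 with a log2 fold of at least 3, 6 for WT widths of at least 500 bp and 205 without a double mutant peak within 1 kb.

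In the same order, the share of WT distal peaks was 10.3%, 3.41%, 2.66%, 6.03%, 0.530% and 1.76%. It was 4.21% when gaps of up to 500 bp counted as overlap, 5.64% with equal numbers of peaks, 4.80% with no start within 5 kb and 3.69% where the Shh-/- peak had to be free of double mutant overlap.

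The anterior list share was 0% with either FDR setting, with the fold setting and with the width setting, 4% (1 of 25) beyond 5 kb and 5.26% (2 of 38) without a double mutant peak within 1 kb. It was 26.3% (10 of 38) with reciprocal overlap, within the interval of the main value.

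The share with a double mutant peak within 1 kb was 75.8% with 50% of the WT peak covered, 91.8% with reciprocal overlap, 20.6% with gaps of up to 500 bp, which removes near peaks by construction, 57.9% with an FDR below 0.05 in all lists, 36.0% with a log2 fold of at least 3, 57% with equal numbers, 33.3% (2 of 6) at widths of at least 500 bp and 52.3% with the Shh-/- peak free of double mutant overlap. The 2 settings of 50% overlap admit WT peaks that overlap a double mutant peak by less than that, which count as near by construction. The last setting removes regions whose Shh-/- peak reaches a double mutant peak. For the remaining moves the cause was not tested.

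The GLI consensus share stayed within its interval under all 12 alternatives that apply, and the median GC content under 9 of 12, from 51.3% with reciprocal overlap to 55.1% among the 6 wide peaks. No paired analysis was possible because the lists, 1 per genotype, hold no value per replicate, and leaving out a replicate could not be run for the same reason. The reads behind each peak and the spread between embryos are not known here, so weak WT peaks near a detection limit cannot be told apart from regions that differ between genotypes.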
